A study of Rattus norvegicus with 26 samples.

Results

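Csf1r, Cx3cr1, P2ry12, Tmem119, Trem2, Tyrobp, Ctss, Gpr34, Laptm5 and Itgb2 mark microglia, the resident macrophages of the brain, and their levels were followed in the hippocampus of 26 aging rats. The 10 genes were chosen by symbol. Each had exactly 1 probe set with a single gene symbol on the array, so no further probe set of a gene could serve as a check, and all 10 were among the 8485 genes tested. The animals were male F344 rats, an inbred strain, aged 18 months. They had eaten a purified diet for 5 to 6 months that differed in vitamin D3 (cholecalciferol), with 100 IU per kg in the low, 1000 in the control and 10000 in the high diet. There were 8, 9 and 9 rats in these groups, with 1 Affymetrix Rat Gene 1.0 ST array for each rat. The rats lived in pairs, and 12 of 14 cages had both animals measured. Rats are named by diet and by the subject number of their label. Levels are the authors' log2 intensities, which depend on the probes, so no gene's level was set against that of another.

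Microglia depend on the receptor CSF1R for their survival and sense neurons through CX3CR1 and adenine nucleotides through P2RY12. TREM2 binds lipids and signals through the adaptor TYROBP, and the integrin chain ITGB2, the protease cathepsin S (Ctss) and the lysosomal protein LAPTM5 serve adhesion, degradation and receptor turnover in many leukocytes. Aging and inflammation are known to alter several of these genes in the brain. The homeostatic markers P2RY12 and TMEM119 are known to decline when microglia become activated, whereas genes of antigen presentation increase.

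The transcription factor PU.1 is a known regulator of myeloid genes, and its core binding motif was searched in windows of 300 bases from RefSeq (build GRCr8), 250 before to 50 after the 1 start site that the sequence table uses for a gene. Windows were found for 6 of the 10 genes: Csf1r, Cx3cr1, Trem2, Ctss, Gpr34 and Laptm5. The start site was the outer 5′ end of the RefSeq gene in Laptm5, and it lay inside the gene by 18 bases in Trem2, 80 in Ctss, 227 in Csf1r, 804 in Gpr34 and 1982 in Cx3cr1. On either strand, GAGGAA was present in 5 of these 6, all but Cx3cr1, and in 27.6% of the 33469 promoters in the table. The longer GAGGAAGT, which contains the shorter motif, was found in 1 of 6, Ctss, and in 2.42% of all promoters. A vitamin D response element of the DR3 type was found in 0 of 6 and in 0.0986% of all. A match is a description of letters and no evidence of binding. Windows of 4 genes are shown because they pair genes that were highest in 1 rat, described further on, with genes that were not. Capitals mark GAGGAA, here always on the opposite strand as TTCCTC.
Ctss promoter, chr2:185775146-185775445, plus strand: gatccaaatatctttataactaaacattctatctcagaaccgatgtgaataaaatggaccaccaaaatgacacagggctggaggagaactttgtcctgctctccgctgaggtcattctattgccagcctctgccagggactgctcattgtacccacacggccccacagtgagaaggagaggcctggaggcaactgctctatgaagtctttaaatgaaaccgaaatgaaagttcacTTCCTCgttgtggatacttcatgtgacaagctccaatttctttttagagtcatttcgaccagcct
Laptm5 promoter, chr5:148371630-148371929, plus strand: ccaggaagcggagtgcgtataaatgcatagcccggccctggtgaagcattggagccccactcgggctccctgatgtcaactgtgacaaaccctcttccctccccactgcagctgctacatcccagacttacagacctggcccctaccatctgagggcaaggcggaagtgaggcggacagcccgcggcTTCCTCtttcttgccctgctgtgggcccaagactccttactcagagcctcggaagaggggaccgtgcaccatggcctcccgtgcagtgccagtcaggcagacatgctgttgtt
Trem2 promoter, chr9:20151730-20152029, minus strand: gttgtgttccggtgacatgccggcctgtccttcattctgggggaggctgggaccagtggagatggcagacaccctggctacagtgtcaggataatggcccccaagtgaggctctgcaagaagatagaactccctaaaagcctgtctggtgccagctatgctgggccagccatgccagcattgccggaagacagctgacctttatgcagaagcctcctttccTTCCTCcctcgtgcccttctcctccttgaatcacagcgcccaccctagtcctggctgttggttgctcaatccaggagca
Gpr34 promoter, chrX:11785787-11786086, minus strand: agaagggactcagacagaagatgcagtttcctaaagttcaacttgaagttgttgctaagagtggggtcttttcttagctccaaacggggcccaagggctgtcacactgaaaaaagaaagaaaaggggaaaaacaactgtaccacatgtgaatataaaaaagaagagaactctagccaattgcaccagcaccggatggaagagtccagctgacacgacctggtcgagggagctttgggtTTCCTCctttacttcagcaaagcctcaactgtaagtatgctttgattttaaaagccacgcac
In these windows the motif began at position -15 from the start site of the window in Ctss, -63 in Laptm5, -29 in Trem2 and -12 in Gpr34.

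One animal, low rat 5, was the highest of 26 rats in 6 of the 10 genes, and by Dixon's test it was an outlier within its diet in 2 of them, Csf1r and Ctss. The diet comparisons and correlations are therefore also given without it. It was the highest in 2.84% of all tested genes, and its array quality weight was 0.904, within a range of 0.474 to 1.64. Array medians ranged from 6.92 to 6.96. Neuron markers such as Snap25 were measured in all rats, with 10 of 10 tested, as were 8 of the 10 hippocampal markers, and the blood leukocyte list was near the floor of the array, with 13 of its 14 measured genes under the filter on low values. The labels name no batch that separates the arrays.

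Csf1r, the receptor on which microglia depend, had low-diet values of 10.23, 10.28 and 10.57 (lowest, median and highest), against 10.19, 10.27 and 10.35 on control and 10.22, 10.29 and 10.34 on high. The diets overlapped throughout, except that low rat 5 lay above all other rats. Cx3cr1, the fractalkine receptor, had 11.10, 11.23 and 11.53 on low, 11.15, 11.26 and 11.28 on control and 11.19, 11.22 and 11.37 on high. Its highest rats were low rats 5 and 7, at 11.53 and 11.49, and its lowest was low rat 6, the cage mate of low rat 5. Both ends of the range therefore came from the low diet.

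P2ry12, the purinergic receptor that directs microglial processes, had 9.46, 9.77 and 9.92 on low, 9.59, 9.77 and 9.99 on control and 9.60, 9.81 and 9.90 on high. Low rat 6 was the lowest of all rats, and low rat 5, at 9.77, lay in the middle. Gpr34, a lysophosphatidylserine receptor, had 9.35, 9.47 and 9.65 on low, 9.29, 9.45 and 9.52 on control and 9.38, 9.50 and 9.57 on high. The low-diet rats fell into 4 between 9.35 and 9.40, among them low rats 5 and 6, and 4 between 9.53 and 9.65. Tmem119, a surface protein used to tell microglia from other macrophages, had 8.59, 8.79 and 9.12 on low, 8.64, 8.80 and 8.97 on control and 8.67, 8.81 and 8.94 on high. Low rats 8 and 5 were the 2 highest and low rat 3 was the lowest.

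Trem2, the lipid receptor, had 8.93, 9.00 and 9.21 on low, 8.99, 9.04 and 9.09 on control and 8.90, 9.07 and 9.15 on high. Low rat 5, at 9.01, was not among its high rats, and low rat 8 was the highest. Tyrobp, the adaptor through which TREM2 signals, had 9.13, 9.31 and 9.89 on low, 9.20, 9.31 and 9.42 on control and 9.15, 9.33 and 9.57 on high. Low rats 5 and 7 were the highest, at 9.89 and 9.68, so the adaptor was high in a rat whose Trem2 was not. The within-diet SD of Tyrobp was 0.162, wider than in 97.3% of tested genes.

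Ctss, the lysosomal protease cathepsin S, had 12.10, 12.23 and 12.54 on low, 12.08, 12.20 and 12.23 on control and 12.04, 12.17 and 12.26 on high. Laptm5, a lysosomal membrane protein of blood cells, had 8.86, 8.94 and 9.26 on low, 8.88, 8.97 and 9.03 on control and 8.89, 8.98 and 9.11 on high. Itgb2, the common beta chain of the leukocyte integrins, had 7.49, 7.56 and 7.96 on low, 7.42, 7.62 and 7.82 on control and 7.55, 7.64 and 7.79 on high. Low rat 5 was the highest of all rats in each of these 3 genes, and the other low-diet rats overlapped with those of both other diets.

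**Figure D1:**
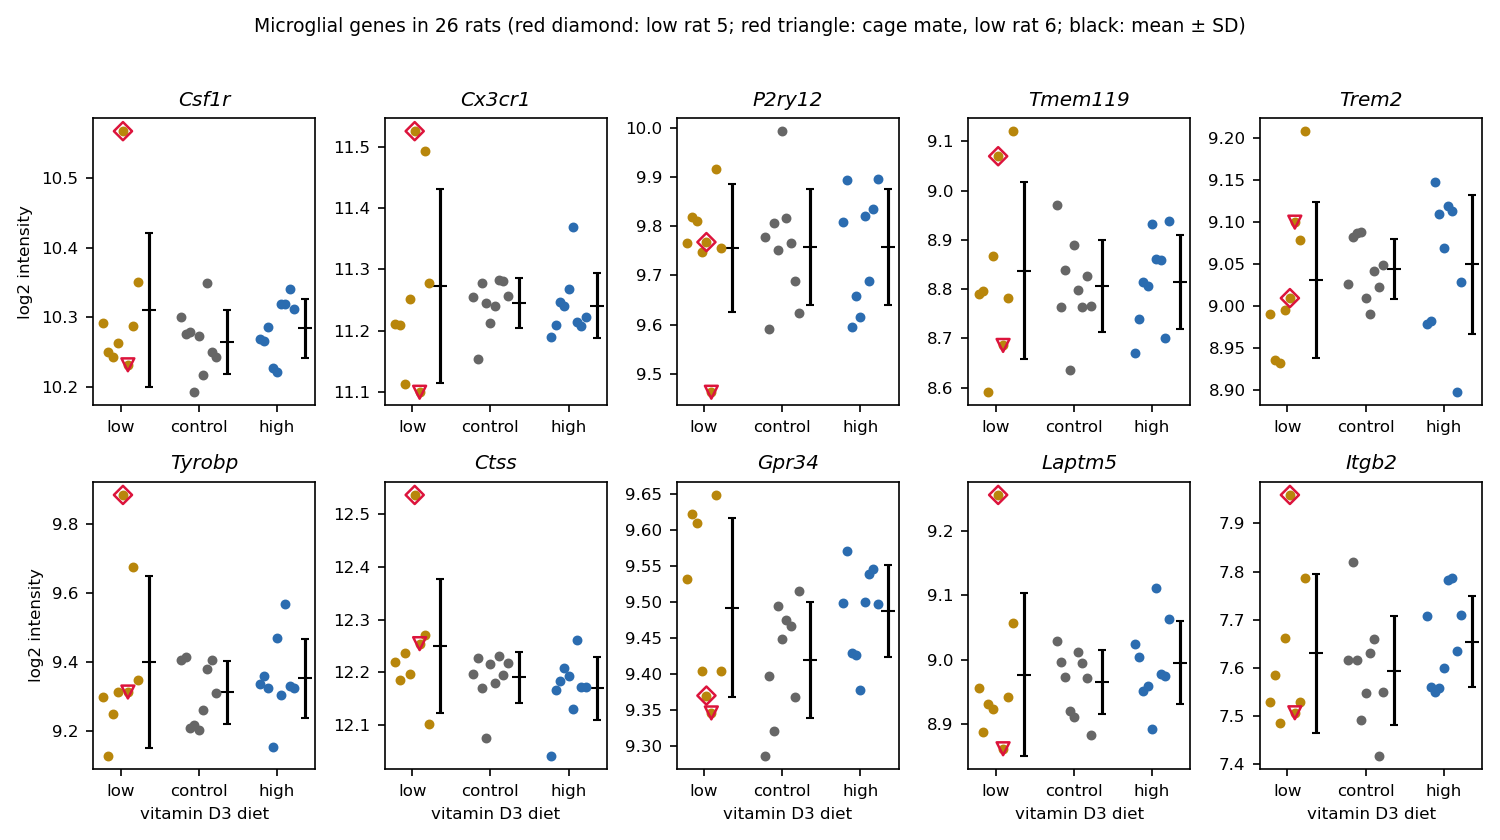
Log2 intensity of each of the 10 genes (vertical axes, 1 panel per gene, scales differ) in every rat by diet, with the mean and SD in black. Low rat 5, the red diamond, is the highest rat in 6 of 10 panels, and low rat 6, its cage mate, is the red triangle.

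No microglial gene differed between the diets beyond the spread of the rats. The mean of the 10 genes in a rat was 9.70 ± 0.10 over the low diet (SD, n = 8), 9.66 ± 0.03 over the control diet (n = 9) and 9.68 ± 0.04 over the high diet (n = 9), and 9.67 over the low diet without low rat 5. In bulk tissue, fewer cells of a type and less RNA per cell cannot be told apart. In the moderated F-test of limma over the 3 diets, 0 of the 10 genes were called at an adjusted p under 0.17, as were 0 of 8485 genes (0%). At an unadjusted p under 0.05 there were 0 of 10, against 4.62% of all tested genes. The smallest unadjusted p values of the F-test were those of Ctss (0.127) and Gpr34 (0.172).

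Between high and low, 0 of the 10 genes were called (0% of all tested genes), and 0 of 10 had an unadjusted p under 0.05, against 7.22% of all. At the looser adjusted p of 0.31, the count was 0 of 10 against 0.0236% of all, and the 2 groups did not overlap in 0 of 10 against 0.0118% of all. Of the 10 genes 6 had a lower mean on high (44.8% of all tested genes) and 4 a higher mean (55.2%), with a median difference of -0.014 log2, against 0.005 over all. Ctss had the largest difference, with means of 12.17 ± 0.06 on high and 12.25 ± 0.13 on low. It differed by -0.08 log2 (SE 0.039, 95% interval -0.16 to 0.00, adjusted p = 0.68), and 8 of 9 high-diet rats lay below the low-diet mean. Without low rat 5 the difference in Ctss was -0.04 (SE 0.029, adjusted p = 0.83), and Laptm5 then differed most clearly, by 0.058 (SE 0.031, adjusted p = 0.762). Tyrobp differed by -0.05 (SE 0.073) with low rat 5 and by 0.02 (SE 0.059) without it. Csf1r, Cx3cr1 and Tmem119 likewise had a lower mean on high with low rat 5 in the fit and a higher mean without it. In Tmem119 the sign also turned when low rat 8 was left out instead (0.017). Without low rat 5, 2 of the 10 genes, Ctss and Gpr34, had the lower mean on high.

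Between high and control, 0 of the 10 genes were called (0% of all tested genes), and 0 of 10 had an unadjusted p under 0.05, against 4.63% of all. Of the 10 genes 7 had a higher mean on high (50.6% of all tested genes) and 3 a lower mean (49.4%), with a median difference of 0.014. Gpr34 had the largest difference, with means of 9.49 ± 0.06 on high and 9.42 ± 0.08 on control. It differed by 0.07 log2 (SE 0.042, 95% interval -0.02 to 0.15, adjusted p = 1), and 3 rats of the high diet exceeded all control rats. Itgb2 differed by 0.06 (SE 0.056) and Tyrobp by 0.04 (SE 0.071). The other 7 genes lay between -0.02 and 0.03.

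Between low and control, 0 of the 10 genes were called (0% of all tested genes), and 0 of 10 had an unadjusted p under 0.05, against 2.27% of all. Of the 10 genes 8 had a higher mean on low (44.1% of all tested genes) and 2 a lower mean (55.9%), with a median difference of 0.034. Without low rat 5 the count of higher means was 4 of 10, against 46.1% of all, and the median difference of the 10 genes was -0.0027. Gpr34 differed by 0.07 (SE 0.043, adjusted p = 1), with 4 of 8 low-diet rats above every control rat. Without low rat 5, which was low in this gene, it differed by 0.09 (SE 0.043, 95% interval 0.0012 to 0.18, adjusted p = 1), the 1 gene of 10 with an unadjusted p under 0.05 (1.9% of all). Tyrobp differed by 0.09 (SE 0.073) and Ctss by 0.06 (SE 0.039) with all rats, and by 0.02 (SE 0.059) and 0.019 (SE 0.029) without low rat 5.

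The intervals set bounds on a difference that these arrays could have missed. In all 3 comparisons the 95% interval of each of the 10 genes lay within 1.2-fold either way. The widest were those of Tyrobp, from 0.87-fold to 1.07-fold for high against low and from 0.96-fold to 1.18-fold for low against control. P2ry12, whose means were 9.76 on all 3 diets, had an interval of 0.92-fold to 1.08-fold for high against low. The comparisons share groups, so their counts are not independent of each other. The intervals took cage mates as independent, whereas the consensus correlation of cage mates over all tested genes was 0.136. It was not estimated for the 10 genes alone, and their intervals may be too narrow.

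**Figure D2:**
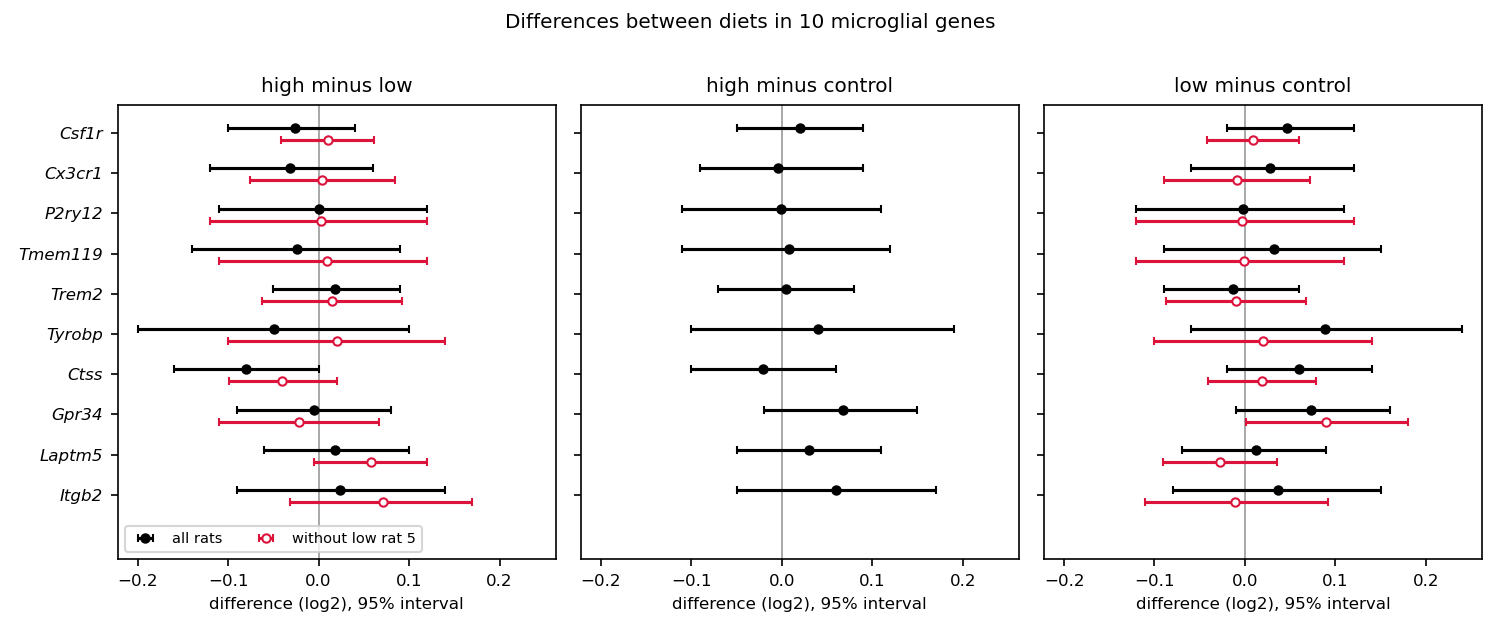
Differences between diets in log2 (horizontal axis) with 95% intervals for the 10 genes in each comparison. Black points use all 26 rats and open red points leave out low rat 5 in the comparisons with the low diet, and only the open point of Gpr34 for low minus control has an interval that excludes 0, with an adjusted p of 1.

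Low rat 5 was the highest of 26 rats in 6 of the 10 genes: Csf1r, Cx3cr1, Tyrobp, Ctss, Laptm5 and Itgb2. Relative to the mean of the other 7 low-diet rats it was higher by 0.55 log2 in Tyrobp (1.47-fold), 0.38 in Itgb2, 0.33 in Ctss, 0.32 in Laptm5, 0.29 in Csf1r and 0.29 in Cx3cr1. Tmem119 was higher by 0.27, with 1 rat above it. The remaining genes did not follow: P2ry12 differed by 0.01, Trem2 by -0.02 and Gpr34 by -0.14 log2. Among all tested genes ranked by this difference, the first 7 genes lay at or above the 98.8th percentile, P2ry12 at the 64.1st, Trem2 at the 42.5th and Gpr34 at the 7.3rd. The 6 of 10 held on the deposited values, with quantile normalization and with arrays centred on their medians. Of the 6 genes with a promoter window, Csf1r, Ctss and Laptm5, which were high in this rat, hold GAGGAA, and Cx3cr1, also high, does not. Trem2 and Gpr34, which were not high, hold it as well. The remaining genes had no window, and a relation of the motif to these levels was not tested.

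The cage mate of this animal, low rat 6, was the lowest of all rats in Cx3cr1, P2ry12 and Laptm5, at 11.10, 9.46 and 8.86. The 2 rats of this cage therefore marked opposite ends of the range in Cx3cr1 and Laptm5. No other rat was the highest in more than 2 of the 10 genes. Low rat 8 was the highest in Tmem119 and Trem2, low rat 7 in Gpr34 and control rat 13 in P2ry12. The SD of the low-diet rats was the widest of the 3 diets in 10 of 10 genes, against 43.3% of all tested genes, and in 6 of 10 without low rat 5, against 43.8% of all. In Csf1r, for example, it was 0.11 on low, 0.05 on control and 0.04 on high, and 0.04 on low without low rat 5. In Cx3cr1 it was 0.16, 0.04 and 0.05, and still 0.13 on low without that rat. The difference in spread was not tested.

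**Figure D3:**
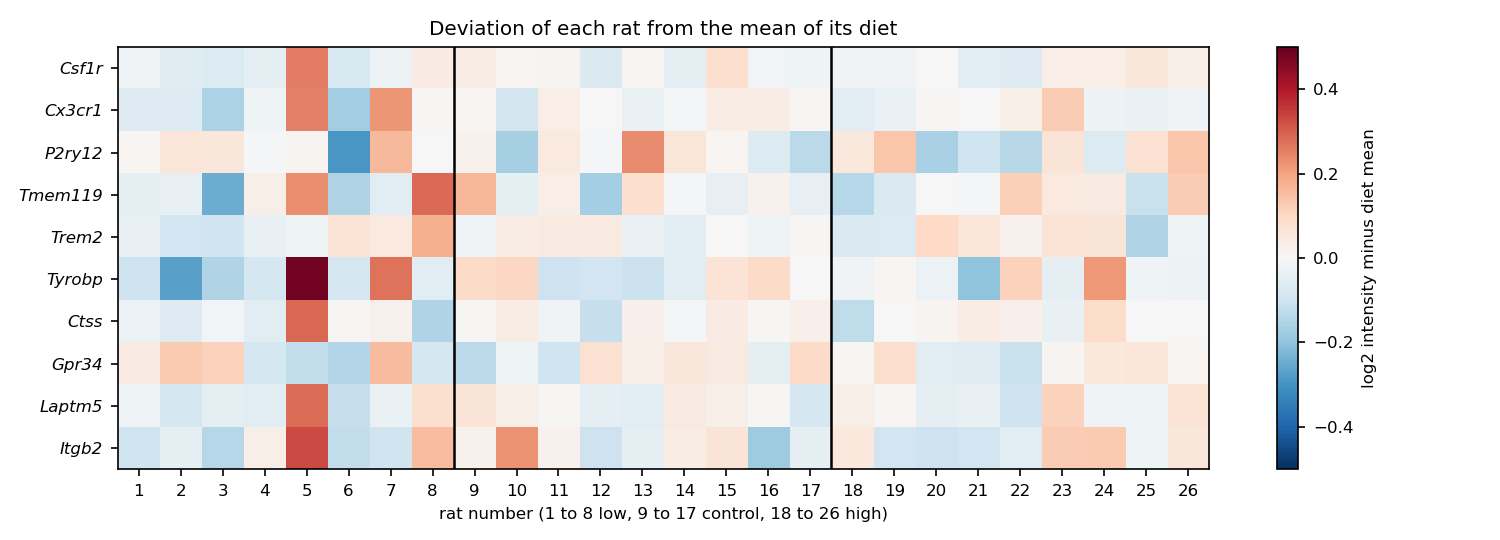
Deviation of each rat (columns, in order of diet) from the mean of its diet in each of the 10 genes (rows), in log2, with red above and blue below. Low rat 5 forms a red column interrupted at P2ry12, Trem2 and Gpr34.

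Further lists of microglial and other genes were counted in the same fit, and 0 genes of any list were called in any of the 3 comparisons. With all rats, the share of all tested genes with an unadjusted p under 0.05 was 7.22% for high minus low. It was 4.63% for high minus control and 2.27% for low minus control. Of the ligands and partner receptors, 12 of 19 were tested. Csf1 and Il34, the ligands of CSF1R, differed by -0.002 and 0.025 log2 between high and low, and the CX3CR1 ligand Cx3cl1 by 0.002. Cd200, a neuronal ligand that restrains microglia, was the 1 gene of that list with an unadjusted p under 0.05, higher by 0.07 on high than on low (adjusted p = 0.68) and different by -0.06 for low minus control (adjusted p = 1). Neither difference, in the fit without low rat 5, had an unadjusted p under 0.05. The list of signalling genes (6 of 15 tested) and that of transcription factors (4 of 10 tested) had 0 such genes in any comparison with all rats. In the fit without low rat 5 all 4 transcription factors had higher means on high than on low, against 53.2% of all tested genes. Among them 1, Spi1, had an unadjusted p under 0.05, with a difference of 0.11 (SE 0.051, adjusted p = 0.762) against 0.062 with all rats. Of 27 tested further microglial markers, 21 had lower means on high than on low, against 44.8% of all tested genes. Higher means on low than on control were seen in 22, against 44.1% of all. Without low rat 5 these counts were 11 and 10, against 46.8% and 46.1% of all. With all rats, the count of that list with an unadjusted p under 0.05 was 0 of 27 for high minus low. It was 1 for high minus control (4.63% of all tested genes) and 1 for low minus control (2.27%). The fructose transporter gene Slc2a5 was higher on high than on control by 0.15 (adjusted p = 1). The ectonucleotidase gene Entpd1 was lower on low than on control by 0.11 (adjusted p = 1). Leaving out low rat 5, the difference in Entpd1 was -0.11 with an unadjusted p above 0.05. For high minus low, 2 of the 27 genes then had one under 0.05, near the share of 6.25% among all tested genes. They were the tetraspanin gene Cd53 (0.13, SE 0.043, adjusted p = 0.762) and the leukotriene synthase gene Ltc4s (-0.13, SE 0.054, adjusted p = 0.762). Of 16 tested activation-associated genes, 9 had lower means on high than on low, against 44.8% of all tested genes. In that comparison 2 of the 16 had an unadjusted p under 0.05, against 7.22% of all. Gpnmb, a lysosomal glycoprotein, differed by -0.11 (adjusted p = 0.68, and by 0.11 for low minus control, adjusted p = 1) and Lyz2, lysozyme, by 0.10 (adjusted p = 0.68). Without low rat 5, 5 of the 16 genes had lower and 11 had higher means on high, against 46.8% and 53.2% of all. In that fit 0 of the 16 had an unadjusted p under 0.05, against 6.25% of all. The differences were then -0.075 in Gpnmb and 0.07 in Lyz2.

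Among other cell types, the counts at an unadjusted p under 0.05 in the 3 comparisons (high minus low, high minus control, low minus control) were 1, 0 and 0 of 10 neuronal genes, 0, 1 and 1 of 9 astrocyte genes, 0, 0 and 0 of 9 oligodendrocyte genes and 1, 0 and 0 of 8 hippocampal genes. Of 10 tested vessel genes they were 4, 5 and 1, all lower in the first-named diet. The shares over all tested genes, in the same order, were 7.22%, 4.63% and 2.27%. When low rat 5 was left out, the count for high minus low was 3 of 10 vessel genes and 0 of 8 hippocampal genes, against 6.25% of all tested genes. For low minus control it was 0 of 9 astrocyte genes, against 1.9% of all. The border macrophage, leukocyte and choroid plexus lists had 1 tested gene each, of which the T-cell gene Cd3e was lower on high than on low by 0.33 (adjusted p = 0.68, with an unadjusted p under 0.05, and by 0.31 without low rat 5).

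The same lists place low rat 5 more closely. It was the highest of 26 rats in 14 of 27 further microglial markers, 8 of 16 activation-associated genes, 4 of 6 signalling genes and 2 of 4 transcription factors. In 1 activation-associated gene, Lyz2, it was the lowest, at 9.13 against 9.20 to 9.71 in the other 25 rats. Of the 12 ligands and partner receptors it was the highest in 4 and the lowest in 1, with a median difference of 0.01 from the other low-diet rats. Among genes under the filter it was the highest in 8 of 9 further microglial markers and in 3 of 14 activation-associated genes. The share over all genes under the filter was not computed. Some of these margins were small, as in Was (5.65 against at most 5.55 in the others) and Il1b (5.57 against at most 5.54). The genes named next were chosen after their values were seen. The complement genes C1qa, C1qb and C1qc were higher than the mean of the other 7 low-diet rats by 1.12, 1.03 and 1.08 log2. Cd74, the invariant chain of MHC class II, was higher by 2.48, at 12.22 against 8.99 to 11.19 in the other 25 rats. Ly86 was higher by 1.11, the complement gene C3 by 0.90, the receptor gene Fcgr2b by 0.76, and Spi1, which encodes PU.1, by 0.40. Cd68 and Cybb, phagocyte genes that were under the filter, reached 7.58 and 7.42 in this rat, against highest values of 6.65 and 6.54 in the others. By contrast the ligand genes Csf1, Il34 and Cx3cl1 differed by 0.01, -0.08 and 0.02. Other genes of the microglial lists were lower in this rat. Lyz2 differed by -0.27, and Ltc4s, Lair1 and Olfml3 of the further markers by -0.16, -0.14 and -0.09.

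Low rat 5 was the highest in 0 of 10 neuronal, 0 of 9 astrocyte, 0 of 9 oligodendrocyte, 0 of 10 vessel and 0 of 8 hippocampal genes. Of the 14 measured genes of the blood leukocyte list, which includes the red cell genes Hbb and Alas2, it was the highest in 0. The mean of the 14 genes was 5.59 in this rat and 5.49 to 5.59 in the other low-diet rats. That mean was 5.45 to 5.66 on control and 5.46 to 5.58 on high. Of the 10 measured genes of border macrophages it was the highest in 2, Folr2 (7.69 against at most 7.11) and Siglec1 (5.75 against at most 5.66), while Mrc1 and Cd163 lay within the range of the other rats, at 5.74 and 5.69. The mean of the border macrophage list was 5.97 in this rat, against 5.78 to 5.93 in the other low-diet rats, 5.80 to 5.88 on control and 5.79 to 5.91 on high, the highest of the 26 rats. Of these genes, 13 of the 14 in the leukocyte list and 9 of the 10 for border macrophages were under the filter on low values. Their ranks therefore say little about the number of such cells. The part of leukocytes and border macrophages in the values of the 10 microglial genes was not tested.

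**Figure D4:**
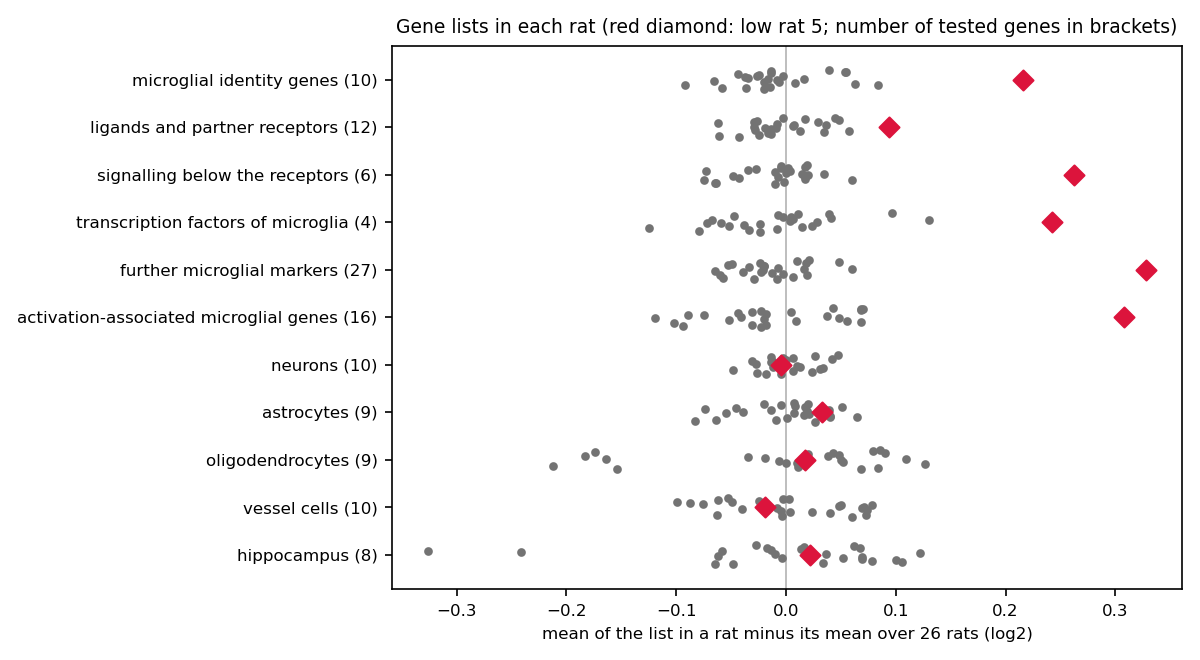
Mean of each gene list in each rat minus its mean over 26 rats (horizontal axis, log2), for lists with at least 4 tested genes. Low rat 5, the red diamond, is the rightmost point in the microglial identity genes, the ligands and partner receptors and the 4 further lists of microglial genes, and it lies among the other rats in the 5 lists of other cells and of the hippocampus.

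Over the rats, with diet means removed, the 10 genes varied together only in part. Of their 45 pairs 33 had a positive Pearson r. The median was 0.29, against a median of 0 for the 10 genes with all other tested genes. Without low rat 5 these medians were 0.16 and 0.03. An r over 0.5 was seen in 13 pairs (28.9%, against 2.25% with all other tested genes), and in 4 pairs (8.89%, against 2.66%) without low rat 5. Permutations of the rats within diets gave 4 pairs with an adjusted p under 0.05 over 45 relations by Pearson and 3 by both measures. These permutations took cage mates as independent.

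Those 3 pairs joined Csf1r, Laptm5 and Itgb2. Csf1r and Laptm5 had r = 0.83 (permutation p = 0.0002, adjusted p = 0.0054) and Spearman rho = 0.73 (permutation p = 0.00023, adjusted p = 0.00945). Their r was 0.60 without low rat 5, 0.66 without the 2 rats farthest from the median of Csf1r and 0.85 over the means of 14 cages. Within the diets it was 0.98 on low, 0.41 on control and 0.55 on high. Laptm5 and Itgb2 had r = 0.75 (permutation p = 0.00024, adjusted p = 0.0054; rho = 0.67, permutation p = 0.00063, adjusted p = 0.00945), with 0.57 without the 2 farthest rats and 0.59 without low rat 5. Csf1r and Itgb2 had r = 0.74 (permutation p = 0.00048, adjusted p = 0.0072; rho = 0.67, permutation p = 0.00046, adjusted p = 0.00945), with 0.58 and 0.56 in the same order. Tyrobp and Ctss had r = 0.69 (permutation p = 0.00365, adjusted p = 0.0411; rho = 0.53, permutation p = 0.00875, adjusted p = 0.0656), which fell to 0.44 and 0.39.

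P2ry12 and Gpr34 had r = 0.49 (permutation p = 0.0122, adjusted p = 0.0784, and rho = 0.47, permutation p = 0.0156, adjusted p = 0.078). It was 0.52 without low rat 5 and 0.41 without the 2 farthest rats, but -0.04 within the control diet, against 0.72 on low and 0.77 on high. Tmem119 and Gpr34 varied in opposite directions, with r = -0.54 (permutation p = 0.0185, adjusted p = 0.0832; rho = -0.55, permutation p = 0.00813, adjusted p = 0.0656), and r was below 0 in each diet, from -0.46 to -0.70. Trem2 and Tyrobp, receptor and adaptor, had r = 0.13 (permutation p = 0.625, adjusted p = 0.74; rho = 0.13, permutation p = 0.541, adjusted p = 0.658; r = 0.2 without the 2 farthest rats). None of these last 3 relations passed the adjusted threshold of 0.05.

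**Figure D5:**
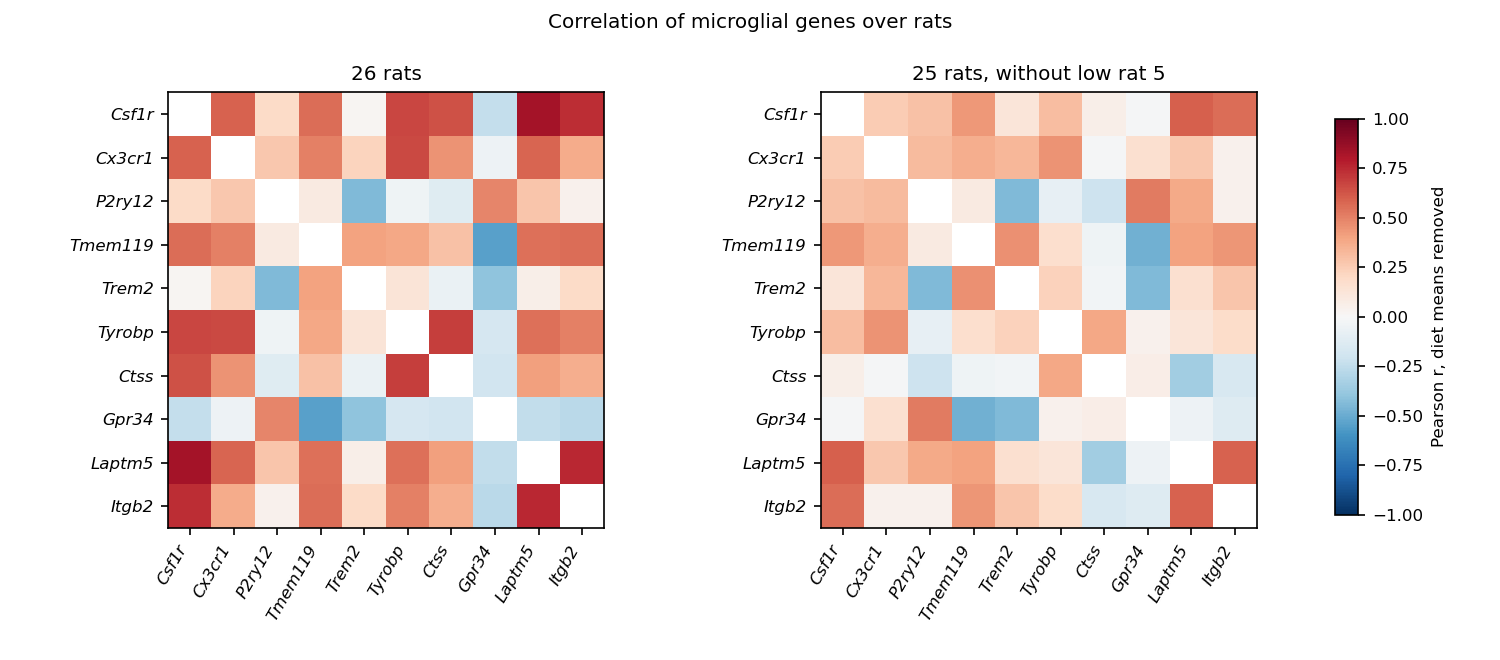
Pearson r of each pair of the 10 genes (both axes) over rats with diet means removed, with all 26 rats on the left and without low rat 5 on the right. The pairs of Csf1r, Laptm5 and Itgb2 remain above 0.5 in both panels, and most other red cells fade.

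Outside the 10 genes, the tested genes whose residuals followed their mean most closely over 26 rats were Anxa3 (r = 0.91), Lgals3bp (0.90), Pld4 (0.87), Tmem176a (0.86) and Ctsz (0.85). Without low rat 5 these r were 0.79, 0.79, 0.72, 0.71 and 0.68, and Anxa3 and Lgals3bp still ranked 1 and 2 of the 8475 other genes. Anxa3 encodes an annexin and Ctsz a lysosomal cathepsin. Each of the 5 genes was highest in low rat 5, for instance Anxa3 at 9.11 against 8.29 to 8.64 in the other low-diet rats. The lowest correlations were those of Fig4 (-0.71), Gosr1 (-0.69), N4bp2l1 (-0.67), Tsn (-0.66) and Bcap29 (-0.66), which without low rat 5 were -0.62, -0.65, -0.28, -0.35 and -0.50. The points share the array of each rat, and these genes were picked for the size of r, so r is a description.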

How the data were processed

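Hippocampal RNA of 26 rats was hybridised to 1 array each (8 low, 9 control and 9 high). The authors deposited a table of log2 intensities for 29214 probe sets, and the submitters' processing notes name Partek 6.6 and GCRMA; nothing further on the normalization is given in the sources used here. The series design describes removing outlying values, but the deposited table has no missing value, and no sample was dropped or imputed. Of 60 rats in the series design, those not on these arrays were not analysed here.

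Genes were named through the platform annotation (15310 probe sets with 1 symbol, 14506 genes). One probe set a gene, that with the highest mean, was tested where its mean was at least 6.94, the median over probe sets, so 8485 genes entered. The fit was limma 3.58.1 in R 4.3.3 over all 3 diets, with no covariate, two-sided tests and Benjamini-Hochberg adjustment over all tested genes. Calls used an adjusted p under 0.17, the stricter rate in the series design, and unadjusted p values under 0.05 were counted as a description. P-values measure the spread between rats, of which cage mates share a cage. Correlations used residuals from the diet means and 100000 two-sided permutations within diets. The scripts were tested on simulated data. The number of arrays limits the precision.

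The 10 genes and the lists were chosen with earlier results of these data known. The rule for other named genes was up to 4 genes of smallest unadjusted p from each list (printed for the microglial and leukocyte lists where under 0.05), the ligands Csf1, Il34 and Cx3cl1, and the 5 genes of highest and of lowest correlation with the mean of the 10. Genes high in low rat 5 were chosen after their values were seen. Leaving out low rat 5 was likewise chosen after seeing the data.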

Additional observations from a re-analysis of the deposited data

Results flagged for a closer look

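In 30 groups formed by 10 genes and 3 diets, 5 had a rat whose gap to its nearest neighbour, as a share of the range of the diet, exceeded the 95% critical value of Dixon's test. Chance gives about 1 such group in 20. Low rat 5 was set apart as the highest in Csf1r (10.57, next 10.35) and in Ctss (12.54, next 12.27), but not in the mean of the 10 genes, where its gap was 0.429 of the range against a critical value of 0.526. Low rat 6, its cage mate, was set apart as the lowest in P2ry12 (9.46, next 9.75). High rat 23 was set apart as the highest in Cx3cr1 (11.37, next 11.27), and control rat 12 as the lowest in Ctss (12.08, next 12.17). Of the 5 genes most like the 10 in pattern, low rat 5 exceeded the critical value in Anxa3 (9.11, next 8.64), Lgals3bp (9.51, next 8.75) and Pld4 (9.89, next 9.43) and did not in Tmem176a and Ctsz. These genes were picked for their correlation with a mean that low rat 5 raises, so their values are a description and no separate support.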

How the results depend on the processing

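Under all 41 settings tried, 0 of the 10 microglial genes were called in any comparison, and the lowest adjusted p of any of them by limma was 0.494. Of the 30 differences, 8 changed sign under an alternative other than leaving out a rat and 16 when 1 rat was left out; the cause was not tested. For all tested genes, the count called for high minus low was 2 at an adjusted p under 0.31, 1 with quantile normalization, 1 with arrays centred on their medians, 1 with the tail mark as a covariate and 30 with values over 2 SD from the diet mean removed, which also gave 15 for high minus control and 17 in the F-test. That removal took out 8 values of 5 of the 10 genes. Leaving out 1 rat gave 0 to 3 genes for high minus low (3 without high rat 25), 0 to 1 for high minus control and 0 to 3 in the F-test.

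With values over 2 SD removed, the sign turned for high minus low in Csf1r (0.01) and P2ry12 (-0.04) and for low minus control in P2ry12 (0.04) and Laptm5 (-0.028). The value removed was that of low rat 5 in Csf1r and Laptm5 and that of low rat 6 in P2ry12. With quantile normalization, P2ry12 was -0.00089 for high minus low, 0.0014 for high minus control and 0.0023 for low minus control. With arrays centred on their medians, Gpr34 was 0.0021 for high minus low, Cx3cr1 0.0086 and P2ry12 0.012 for high minus control, and P2ry12 0.0037 for low minus control. With array quality weights, P2ry12 was -0.018 and Tmem119 0.0039 for high minus low, Cx3cr1 0.0062 for high minus control and P2ry12 0.003 for low minus control. With the tail mark, P2ry12 was 0.0024 for high minus control.

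Leaving out 1 rat gave, for high minus low, -0.038 to 0.01 in Csf1r, -0.057 to 0.0043 in Cx3cr1, -0.04 to 0.024 in P2ry12, -0.059 to 0.017 in Tmem119, -0.088 to 0.02 in Tyrobp and -0.026 to 0.018 in Gpr34. For high minus control it gave -0.02 to 0.0023 in Cx3cr1, -0.021 to 0.029 in P2ry12, -0.013 to 0.028 in Tmem119 and -0.0068 to 0.024 in Trem2. For low minus control it gave -0.0084 to 0.053 in Cx3cr1, -0.025 to 0.04 in P2ry12, -0.0088 to 0.067 in Tmem119, -0.038 to 0.0012 in Trem2, -0.028 to 0.028 in Laptm5 and -0.011 to 0.064 in Itgb2. The median correlation of the gene pairs was 0.16 without low rat 5, against 0.29. No paired analysis was possible because the subject numbers are not shared between diets. The stricter filter tested 6 of the 10 genes.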
